A study of Rattus norvegicus with 19 samples.

Results

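The mRNAs of 7 genes of inhibitory transmission were followed in the retina of diabetic rats: Gad1, which makes gamma-aminobutyric acid (GABA), the GABA-A receptor subunits Gabra5 and Gabrb1, the rho subunits Gabrr1 and Gabrr2, and the glycine receptor subunits Glra1 and Glrb. They were chosen by name, with earlier results of these data known, out of 12978 genes that have a probe with a gene symbol on the array. Each of the 7 was measured by 1 probe. Among them only Gabra5, a dim probe detected on every array of the diabetic group but not of the others, passed the test: its signal was higher in diabetic than in control retinas, a call that was lost without the detection filter and in 8 of 19 fits with an array left out, and lower in insulin-treated than in untreated diabetic retinas. The other 5 members that could be tested had differences between -0.36 and 0.29 on the log2 scale and passed the test in no comparison. Whole retina, with the pigment epithelium left on and the lens and vitreous taken off, came from male Sprague-Dawley rats, which the methods call age-matched without giving an age. The control rats (Control, 7 arrays) received vehicle. The diabetic rats (STZ, 5 arrays) received streptozotocin, a toxin of the insulin-producing beta cells, at 65 mg/kg. The insulin-treated diabetic rats (STZ + insulin, 7 arrays) received the same streptozotocin and, from week 6, subcutaneous insulin pellets of 26 mg, so that their treatment followed several weeks of untreated diabetes. All retinas were collected at 3 months, and each array carried the RNA of 1 rat.

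GABA and glycine are the fast inhibitory transmitters of the retina. Amacrine and horizontal cells make GABA from glutamate with glutamate decarboxylases, of which Gad1 is one, and a further set of amacrine cells releases glycine. GABA-A receptors are pentameric chloride channels drawn from a large family of subunits, rho subunits form the slowly closing GABA-C type that is known from the axon terminals of bipolar cells, and glycine receptors combine ligand-binding alpha subunits such as Glra1 with the beta subunit Glrb, which anchors the channel to the scaffold protein gephyrin.

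The sequence just before the annotated start of 4 genes is shown because 3 of them, Gabra5, Gabrd and Gabbr1, were the only genes of GABA and glycine transmission that passed the test in any comparison, and Gad1 stands for synthesis. A promoter sequence was found for 6 of the 7 members. Each run holds the 250 bases upstream of the start, 5′ to 3′ in the direction of the gene, from RefSeq with the GRCr8 build. Capitals mark matches, on either strand, to the GC box (GGGCGG), the CACCC box (CACCC) and the TATA box (TATAAA). The matches of different motifs shared no base, and 3 of the GC boxes of Gabrd overlapped each other.
Gabra5, chr1:117516607-117516856, minus strand: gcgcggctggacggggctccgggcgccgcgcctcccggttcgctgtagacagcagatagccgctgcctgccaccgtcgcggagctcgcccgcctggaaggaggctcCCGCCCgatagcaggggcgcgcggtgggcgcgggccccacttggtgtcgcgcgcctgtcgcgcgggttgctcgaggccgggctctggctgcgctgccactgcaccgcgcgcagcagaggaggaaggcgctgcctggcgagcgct
Gabrd, chr5:171252710-171252959, minus strand: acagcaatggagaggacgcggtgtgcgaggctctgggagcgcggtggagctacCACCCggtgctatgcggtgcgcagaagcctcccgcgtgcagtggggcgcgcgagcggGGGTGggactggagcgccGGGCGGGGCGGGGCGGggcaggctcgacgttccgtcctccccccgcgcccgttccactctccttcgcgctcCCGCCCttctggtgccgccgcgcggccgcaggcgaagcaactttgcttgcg
Gabbr1, chr20:1499237-1499486, minus strand: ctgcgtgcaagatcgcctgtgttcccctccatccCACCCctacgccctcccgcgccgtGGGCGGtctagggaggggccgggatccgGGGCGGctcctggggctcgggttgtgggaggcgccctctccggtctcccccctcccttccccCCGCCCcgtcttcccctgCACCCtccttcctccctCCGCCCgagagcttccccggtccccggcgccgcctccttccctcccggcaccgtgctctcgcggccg
Gad1, chr3:75777202-75777451, plus strand: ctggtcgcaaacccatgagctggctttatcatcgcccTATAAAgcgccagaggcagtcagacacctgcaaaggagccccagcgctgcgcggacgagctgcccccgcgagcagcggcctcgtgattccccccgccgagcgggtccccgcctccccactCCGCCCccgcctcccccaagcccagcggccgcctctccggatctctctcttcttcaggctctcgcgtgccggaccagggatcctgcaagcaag
These stretches were rich in G and C, at 76.4% for Gabra5, 74.0% for Gabrd, 75.6% for Gabbr1 and 68.4% for Gad1, against a median of 51.2% over 33469 promoters of the same length. The Gabra5 stretch held 1 GC box and the Gad1 stretch 1, while those of Gabrd and Gabbr1 held 4 each. A GC box was present in 30.5% of all promoters, a CACCC box in 49.2% and a TATA box in 12.9%. Gad1 was the only one of the 4 with a TATA box in the window, at position -213 from the start. Of the members not printed, Glrb was at 61.2% G and C with 2 GC boxes, while Gabrb1 (49.2%), Gabrr1 (44.0%) and Gabrr2 (47.6%) lay near or below the median and matched no GC box. A match describes letters only.

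Signals are average-normalized array intensities: the authors subtracted the background and scaled each array to a common mean. A probe counted as detected on an array when its detection p, computed by GenomeStudio against negative control probes, was under 0.05, and 10718 of 22517 probes, those detected throughout 1 or more of the groups, entered the test. Differences are given on the log2 scale after signals under 10 were set to 10, with 95% intervals, and "adjusted p" is that of a single limma model of all 3 groups, Benjamini-Hochberg adjusted over the 10718 probes. The mean non-normalized signal of an array ran from 307 to 475 and the number of detected probes from 11239 to 11824. Arrays lay on 2 BeadChips, glass slides that hold several arrays, and every group was spread over both. Markers of the retina were present throughout: the rod genes Sag, Pde6b, Gnat1 and Rcvrn, the amacrine cell genes Pax6 and Tfap2b, and Rlbp1 of Müller glia were detected on 19 of 19 arrays. Both comparisons that include the diabetic rats share the same 5 arrays, and both that include controls share the same 7.

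Gabra5, which encodes the alpha5 subunit found in receptors outside the synapse that carry tonic inhibition, gave signals of 33.6, 41.2, 34.0, 27.1 and 39.3 in the 5 diabetic retinas. In the 7 control retinas its signal ranged from 15.1 to 28.4 with a median of 20.0. In the 7 insulin-treated diabetic retinas it ranged from 13.4 to 21.4 with a median of 17.6. Every diabetic retina lay above every insulin-treated one, and 4 of the 5 lay above the highest control. The log2 signal was 5.12 ± 0.24 (SD, n = 5) in diabetic, 4.44 ± 0.37 (n = 7) in control and 4.12 ± 0.26 (n = 7) in insulin-treated retinas. Gabra5 was thus 0.67 higher in diabetic than in control retinas (standard error 0.17, 95% interval 0.33 to 1.02, limma adjusted p = 0.0394), and above the control mean in 5 of 5 rats. Between untreated and insulin-treated diabetic retinas it fell by 1.00 (interval -1.35 to -0.65, adjusted p = 0.00318), with 7 of 7 rats below the diabetic mean. As 5 of the 7 insulin-treated and 3 of the 7 control arrays did not detect the probe, no fold is given.

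**Figure D1:**
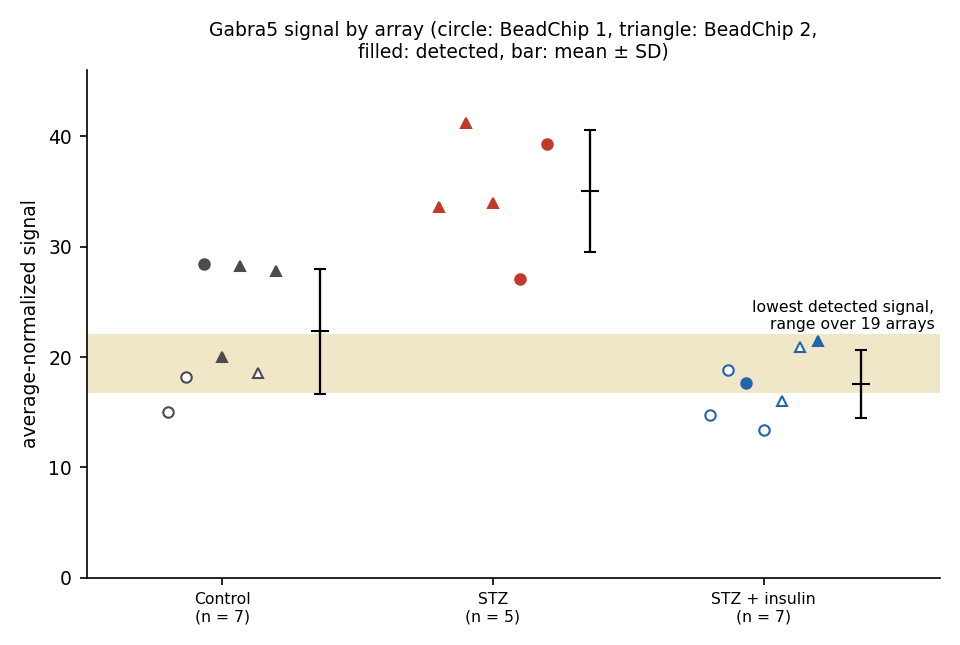
Average-normalized signal of the Gabra5 probe on each of 19 arrays (vertical axis, linear, from 0) by group. Circles are BeadChip 1 and triangles BeadChip 2, filled symbols are arrays where the probe was detected, bars are the mean ± SD, and the band spans the lowest detected signal of each array, 16.8 to 22.0. The 5 diabetic arrays sit between 27.1 and 41.2, above all 7 insulin-treated arrays, while the controls reach 28.4.

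These are dim signals. The lowest signal called detected ranged from 16.8 to 22.0 over the arrays, and Gabra5 was detected on 5 of 5 diabetic, 4 of 7 control and 2 of 7 insulin-treated arrays. The probe therefore entered the test through the diabetic group alone, where it was brightest, and a probe that enters in this way had to differ. Without a filter its adjusted p was 0.0909 against control and 0.00876 for insulin-treated against untreated rats, and with a detection p under 0.01 it was not tested. On BeadChips 1 and 2 the difference between diabetic and control rats was 0.72 and 0.63, and that between insulin-treated and untreated diabetic rats was -1.03 and -0.90. The size changed with the background correction, to 0.41 and -0.51 with neqc, which models the background and adds an offset, and to 0.23 and -0.30 with non-normalized signals set to a common median.

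The call of Gabra5 against control rested on single arrays. It was lost without control array 1 (adjusted p = 0.0726), 2 (0.0662), 4 (0.0552) or 6 (0.0639), without diabetic array 1 (0.0522), 2 (0.101) or 5 (0.0570), and without insulin-treated array 2 (0.0504), with a difference of 0.59 to 0.76 over all arrays left out in turn. The call of insulin-treated against untreated rats held with each of the 19 arrays left out, at -1.09 to -0.94. In bulk retina, fewer cells that carry an mRNA and less of it per cell cannot be told apart.

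Lens mRNA moved with the groups in the same order as Gabra5. Of 16 lens genes on the marker list, such as the crystallins, 9 were tested, and their mean log2 signal was 9.50 in control, 10.97 in diabetic and 7.73 in insulin-treated retinas. The summed signal of the list ran from 4055 to 57220 in controls, from 11487 to 84563 in diabetic and from 1280 to 15944 in insulin-treated retinas. In an exact two-sided permutation test over the arrays the lens list differed between insulin-treated and untreated diabetic rats by -3.24 (p = 0.00505, 0.0152 adjusted over the 3 comparisons) and between diabetic and control rats by 1.48 (p = 0.159, adjusted 0.159). On BeadChips 1 and 2 the lens list differed by 3.53 and 0.03 between diabetic and control rats, beside 0.72 and 0.63 for Gabra5. Between insulin-treated and untreated diabetic rats it differed by -4.52 and -2.32, beside -1.03 and -0.90 for Gabra5. With the lens list as a covariate the Gabra5 differences were 0.67 and -0.99, with standard errors of 0.19 and 0.23 against 0.17 without it. Neither call held, with limma adjusted p of 0.0829 and 0.0716. Over all tested probes the calls fell from 299 to 112 and from 1117 to 2 in this fit. As lens signal moved with the groups, the fit cannot tell a part of lens tissue from that of treatment.

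**Figure D2:**
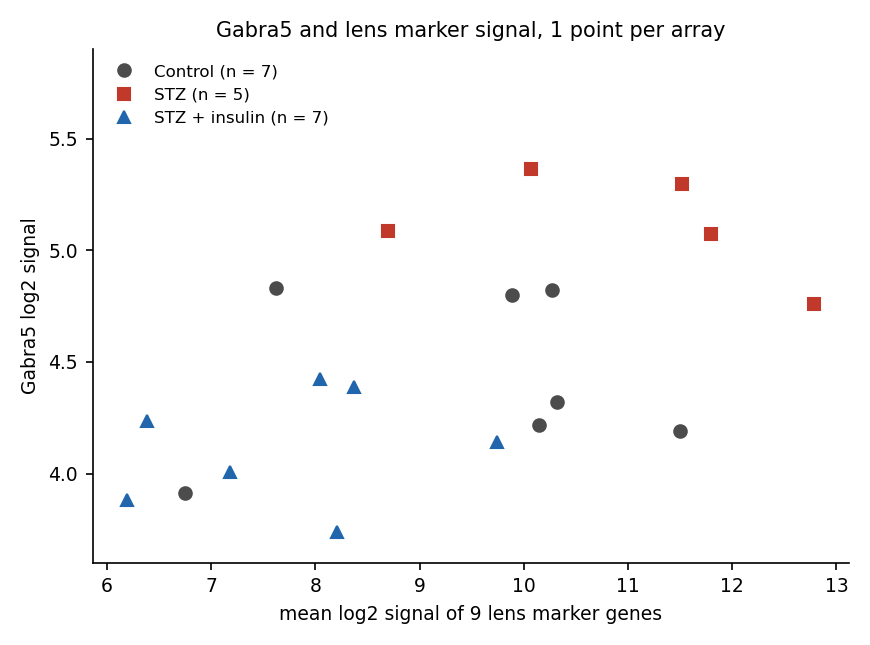
Gabra5 log2 signal (vertical axis) against the mean log2 signal of 9 lens marker genes (horizontal axis), 1 point per array, with controls as circles, diabetic rats as squares and insulin-treated diabetic rats as triangles. The lens mean ran from 6.75 to 11.50 in control, 8.70 to 12.79 in diabetic and 6.19 to 9.74 in insulin-treated arrays. The Gabra5 log2 signal ran from 3.91 to 4.83, from 4.76 to 5.36 and from 3.74 to 4.42 in the same groups.

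Gabrb1, which encodes the beta1 subunit, was detected on all 19 arrays. Its signal was 172, 176, 201, 174 and 208 in the diabetic retinas, between 194 and 215 in controls (median 208) and between 194 and 227 in insulin-treated rats (median 204). The lowest 3 of all 19 signals were diabetic, but the other two diabetic arrays lay within the control range. The difference was -0.17 between diabetic and control rats (standard error 0.06, interval -0.30 to -0.03, adjusted p = 0.138), with 5 of 5 rats below the control mean. It was 0.16 between insulin-treated and untreated diabetic rats (interval 0.02 to 0.29, adjusted p = 0.116), with 7 of 7 above the diabetic mean. Neither passed the test.

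The rho subunits Gabrr1 and Gabrr2, which are neighbouring genes on rat chromosome 5, were detected on all arrays. Gabrr2 gave 391, 382, 635, 397 and 434 in the diabetic retinas, 453 to 562 in controls (median 517) and 457 to 530 in insulin-treated rats (median 484). Diabetic array 3 was the highest of all 19, while the other 4 diabetic arrays were the lowest of all. Over the 5 rats Gabrr2 differed from controls by -0.23 (interval -0.44 to -0.01, adjusted p = 0.216), and insulin-treated from untreated rats by 0.16 (interval -0.06 to 0.37, adjusted p = 0.347). Without array 3 both differences passed the test, at -0.36 (adjusted p = 0.0144) and 0.29 (adjusted p = 0.0157). As array 3 ran opposite to the other 4, leaving it out had to widen both, and no support is drawn from these calls. In the same fit the probes with an unadjusted limma p under 0.05 rose from 2230 to 2694 and from 2907 to 3337. Arrays 3 and 2 of the diabetic group, the highest and the lowest for Gabrr2, had the lowest array weights of the 19, at 0.336 and 0.340, a measure of how closely an array follows its group over all probes. Gabrr1 gave 919, 822, 958, 686 and 813 in the diabetic retinas, 825 to 911 in controls and 795 to 964 in insulin-treated rats, ranges that overlapped throughout. Its differences were -0.06 (interval -0.22 to 0.10, adjusted p = 0.667) and 0.09 (interval -0.07 to 0.25, adjusted p = 0.481).

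Of the glycine receptor subunits, Glra1 could not be tested. It was detected on 1 of 19 arrays, diabetic array 5, with a signal of 21.4, and on the other arrays its signal lay between 2.89 and 15.2. Glrb was detected on all arrays and varied most among the members that were. Its signal was 69.0, 43.5, 83.5, 48.9 and 84.6 in diabetic retinas, 55.1 to 107 in controls (median 79.5) and 52.2 to 100.3 in insulin-treated rats (median 85.2). The groups overlapped widely. The differences of -0.36 between diabetic and control rats (standard error 0.21, interval -0.79 to 0.07, adjusted p = 0.334) and 0.29 between insulin-treated and untreated diabetic rats (interval -0.14 to 0.72, adjusted p = 0.384) stayed within the spread.

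Gad1, the only member that makes the transmitter, had the smallest standard error of the tested members. Its signal was 5828, 5358, 5409, 5116 and 5704 in diabetic retinas, 5509 to 6241 in controls (median 5966) and 5272 to 6192 in insulin-treated rats (median 5924). All 5 diabetic rats lay below the control mean, and 2 of them within the control range. The difference was -0.11 (standard error 0.06, interval -0.23 to 0.02, adjusted p = 0.313). Between insulin-treated and untreated diabetic rats it was 0.09 (interval -0.03 to 0.22, adjusted p = 0.313).

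**Figure D3:**
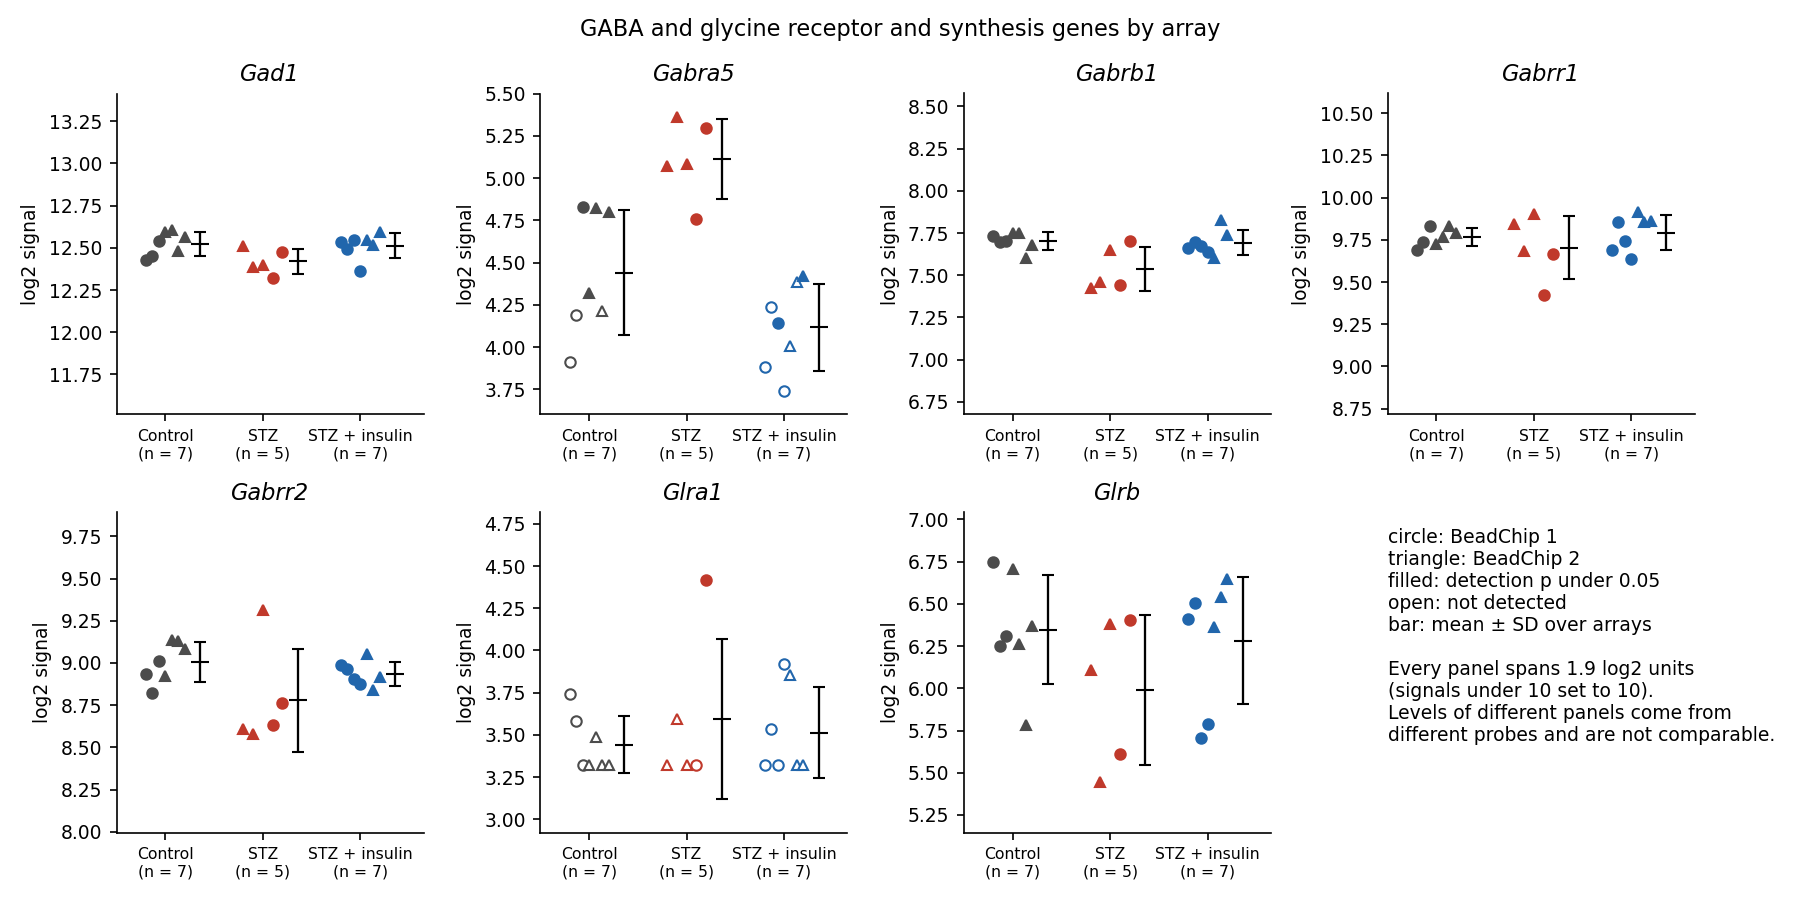
Log2 signal of the 7 members on each array (vertical axis) by group, with circles for BeadChip 1, triangles for BeadChip 2, open symbols for arrays where the probe was not detected, and the mean ± SD. All panels span the same log2 range. Only Gabra5 separates the diabetic from the insulin-treated arrays, and in Gabrr2 diabetic array 3 lies at 9.31, above every other array.

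Of the 6 tested members Gabra5 alone passed the test between diabetic and control rats, where 2.79% of all tested probes did, and between insulin-treated and untreated diabetic rats, where 10.4% did. Between these last groups it was also the only member whose groups did not overlap, as was the case for 3.73% of tested probes. Since Gabra5 entered the test through the diabetic group alone, nothing is read from these counts against the shares of all probes. The other 5 tested members all lay lower in diabetic than in control retinas, as did 64.7% of all tested probes, and all 5 lay higher in insulin-treated than in untreated diabetic retinas, where 38.7% of tested probes lay lower. The median difference of the 6 was -0.14 and 0.13 in these comparisons, against -0.07 and 0.06 over all tested probes.

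**Figure D4:**
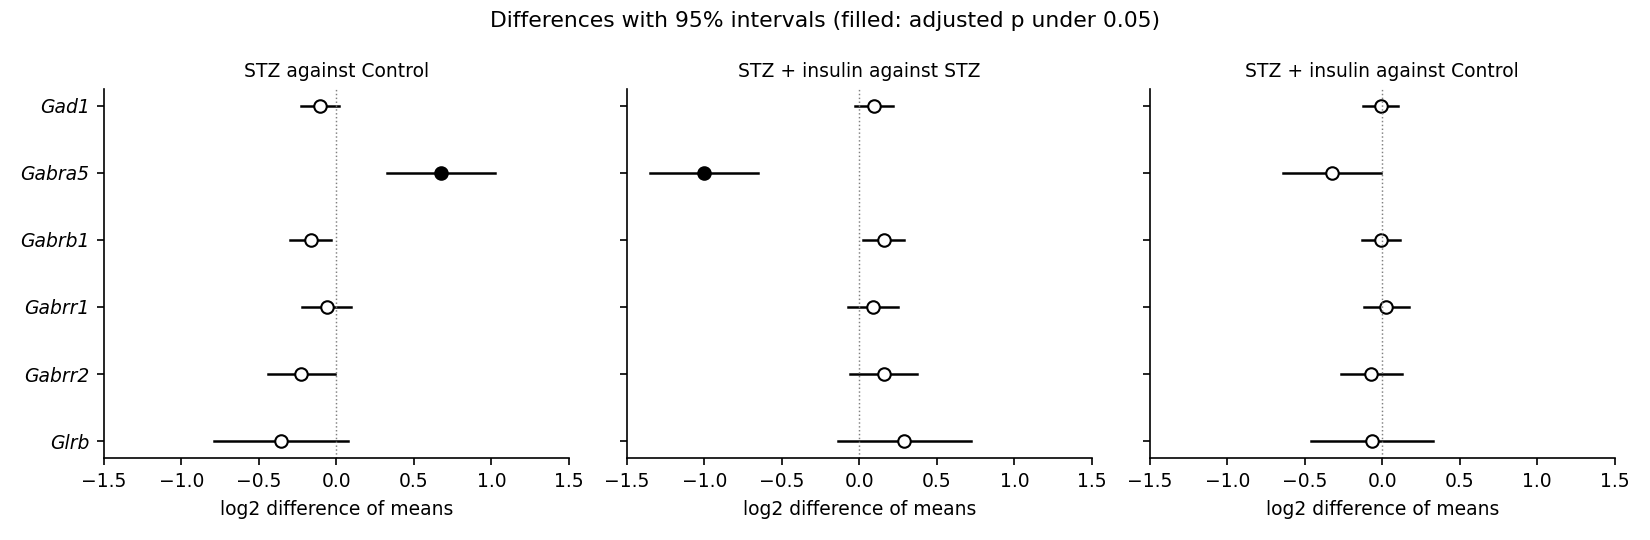
Differences of mean log2 signal with 95% intervals (horizontal axis) for the 6 tested members in 3 comparisons, filled where the adjusted p is under 0.05. Gabra5 is filled at 0.67 and -1.0, and between insulin-treated and control rats the interval of Gabra5 runs from -0.64 to -0.01 while those of the other 5 include 0.

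Between insulin-treated diabetic and control rats 0 of the 6 members passed by limma and 0 by the methods' t-test with the same adjustment, against 0.00933% of tested probes by limma. Gabra5 had an unadjusted p of 0.0456, with a difference of -0.33 (interval -0.64 to -0.01, adjusted p = 0.538) and 7 of 7 rats below the control mean. The other differences were -0.01 for Gabrb1 (interval -0.13 to 0.11), 0.03 for Gabrr1 (-0.12 to 0.17), -0.07 for Gabrr2 (-0.27 to 0.13), -0.07 for Glrb (-0.46 to 0.33) and -0.01 for Gad1 (-0.12 to 0.10). The interval of Glrb was the widest of the 6, and those of Gabrb1 and Gad1 were the narrowest.

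The wider set of GABA and glycine transmission held 56 genes in 9 lists, of which 44 had a named probe and 31 were tested. Of these 31, 2 passed between diabetic and control rats, both higher (Gabra5 and Gabrd), 2 passed between insulin-treated and untreated diabetic rats, both lower (Gabra5 and Gabbr1), and 0 passed between insulin-treated and control rats, where 3 had an unadjusted p under 0.05, as did 8.98% of all tested probes. The shares of all tested probes that passed in the first and second of these comparisons were the 2.79% and 10.4% given above. The median difference of the 31 was -0.07, 0.09 and -0.01 in the 3 comparisons, against -0.07, 0.06 and -0.0046 over all tested probes. The 13 genes that were not tested included 8 detected on no array, among them the GABA-A subunits Gabra3, Gabra4, Gabra6 and Gabrg3 and the glycine transporter Slc6a5.

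Gabrd encodes the delta subunit, which like alpha5 occurs in receptors outside the synapse. Its signal was 149.5, 172, 178, 132 and 149.3 in the diabetic retinas and 108 to 139.7 in controls (median 130), so that 4 of 5 diabetic rats lay above every control. It rose by 0.32 (standard error 0.09, interval 0.14 to 0.50, adjusted p = 0.0486) in diabetic rats. In insulin-treated rats the signal ran from 120 to 153 (median 139), a difference of -0.15 from untreated diabetic rats (adjusted p = 0.259) and of 0.17 from controls (adjusted p = 0.532). The call lay at the threshold: of 19 arrays left out in turn it held only without diabetic array 4 or insulin-treated array 4, and was lost without any of the other 17, at adjusted p up to 0.124.

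Gabbr1 encodes the subunit of the GABA-B receptor that binds GABA, and pairs with Gabbr2, which couples to G proteins. Its signal was 127, 145, 101, 111 and 126 in the diabetic retinas, 70.7 to 118 in controls (median 95.6) and 65.8 to 122 in insulin-treated rats (median 81.8). Between untreated and insulin-treated diabetic rats it fell by 0.47 (standard error 0.14, interval -0.77 to -0.17, adjusted p = 0.0429), with 6 of 7 rats below the diabetic mean, and it differed by 0.33 between diabetic and control rats (interval 0.03 to 0.63, adjusted p = 0.202). The first call was lost without control array 2 or 7, diabetic array 1, 2, 4 or 5, or insulin-treated array 1, 3, 4, 5 or 7, at adjusted p between 0.0512 and 0.117. Its partner Gabbr2 went the other way, at -0.15 in diabetic rats (adjusted p = 0.380) and 0.23 between insulin-treated and untreated rats (adjusted p = 0.122), neither past the test. Gabbr2 and Gabra2 were singled out after their values were seen. Gabra2, another alpha subunit, was at -0.42 in diabetic rats (interval -0.79 to -0.04, adjusted p = 0.189) and 0.48 between insulin-treated and untreated rats (interval 0.11 to 0.86, adjusted p = 0.0860), opposite in sign to Gabra5 and not past the test.

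**Figure D5:**
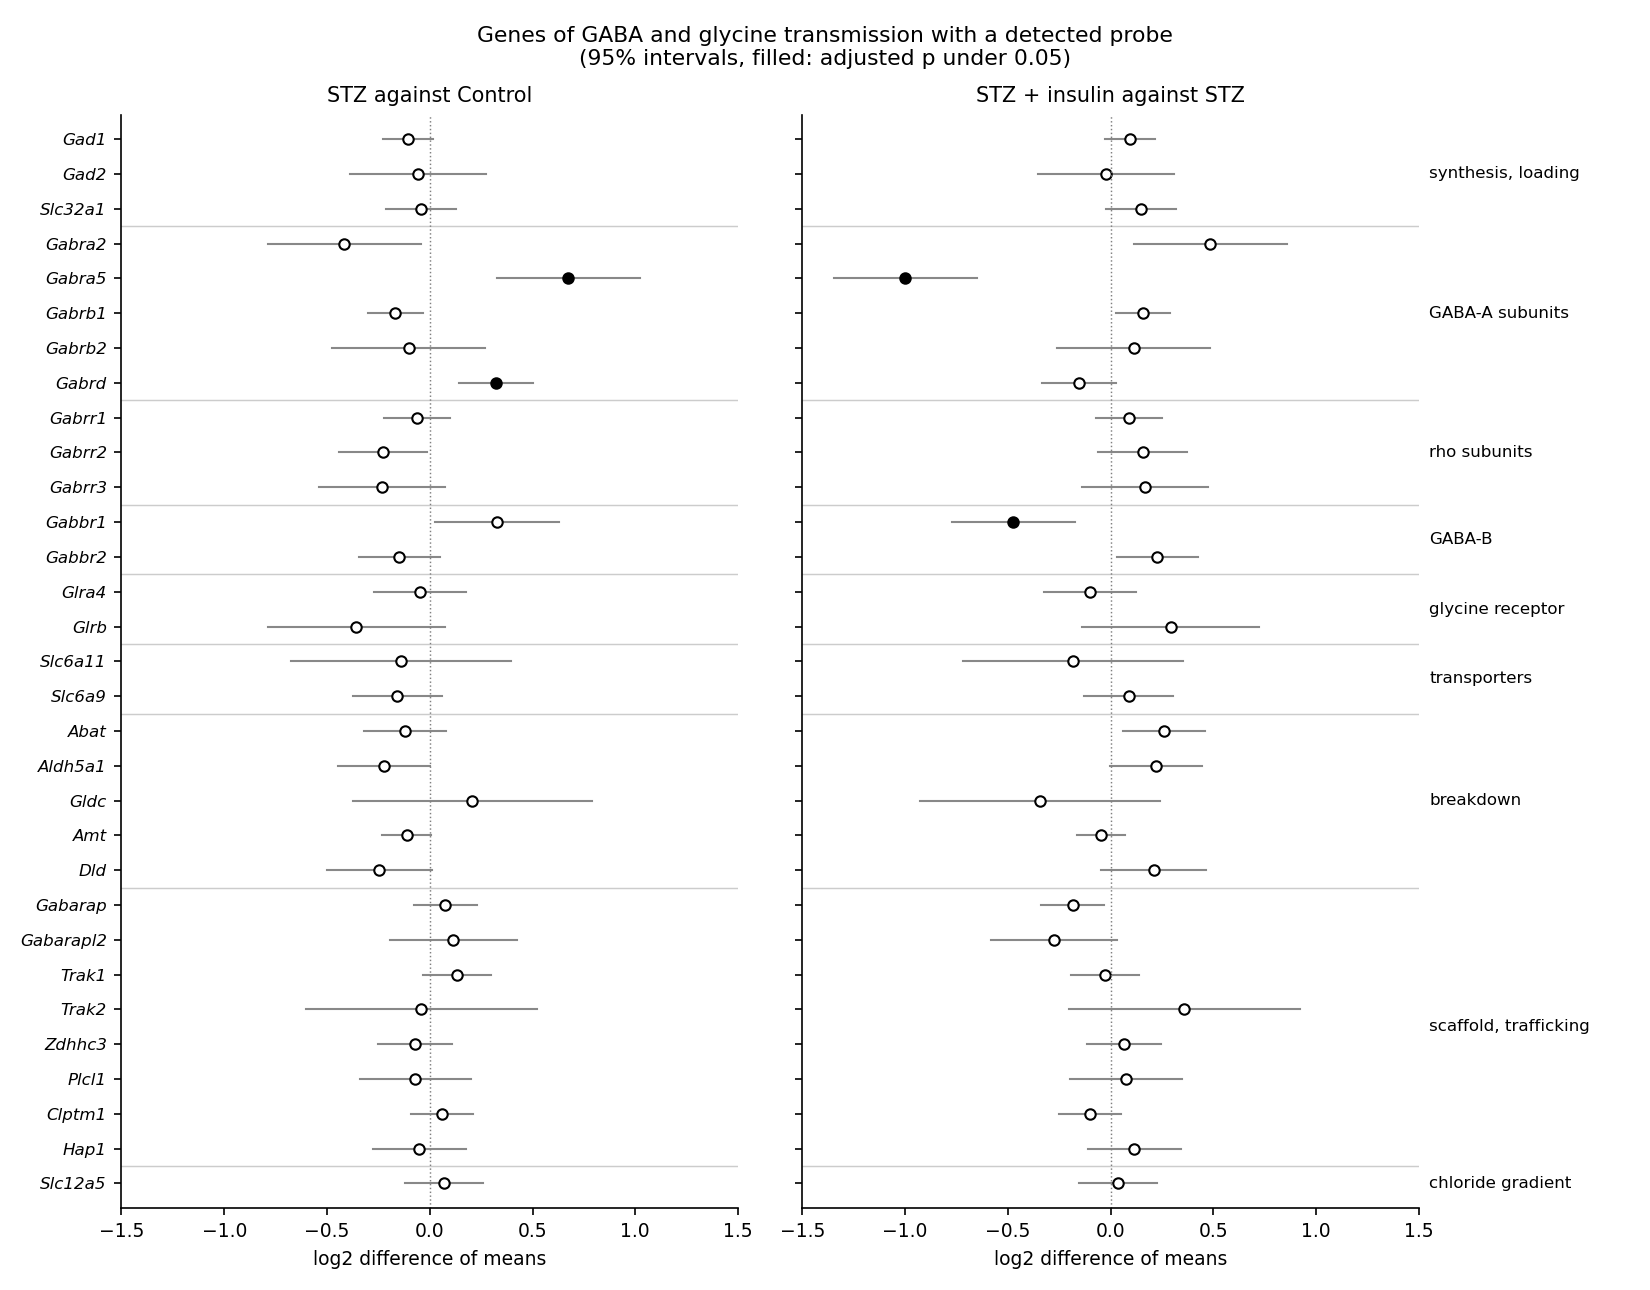
Differences of mean log2 signal with 95% intervals (horizontal axes) for the 31 tested genes of GABA and glycine transmission, grouped by list, between diabetic and control rats on the left and between insulin-treated and untreated diabetic rats on the right. Filled points passed the test: Gabra5 at 0.67 and Gabrd at 0.32 on the left, Gabra5 at -1.0 and Gabbr1 at -0.47 on the right.

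No member of the remaining lists passed limma's test in any comparison. In the synthesis list the vesicular transporter Slc32a1, which loads GABA and glycine, differed by -0.04 and 0.15 (adjusted p = 0.796 and 0.246) in the comparisons of diabetic with control and of insulin-treated with untreated diabetic rats, beside Gad1. The third rho subunit, Gabrr3, was at -0.23 and 0.17 (0.382 and 0.495), and the glycine receptor subunit Glra4 at -0.05 and -0.10 (0.836 and 0.582). The glycine transporter Slc6a9 was at -0.16 and 0.09 (0.401 and 0.625) and the GABA transporter Slc6a11 at -0.14 and -0.18 (0.791 and 0.678). Of the breakdown enzymes, GABA transaminase (Abat) was at -0.12 and 0.26 (0.486 and 0.0865). Amt, of the glycine cleavage system, was at -0.11 and -0.05 (0.266 and 0.636), and it had the smallest unadjusted p of the wider set between insulin-treated and control rats, 0.00628, at -0.16 (adjusted p = 0.265) with 7 of 7 rats below the control mean. Gabarap and Gabarapl2, small proteins of receptor trafficking and autophagy, were at 0.08 and -0.18 (0.577 and 0.108) and at 0.12 and -0.28 (0.685 and 0.236). The chloride exporter Slc12a5, which sets the gradient that makes GABA inhibitory, was at 0.07 and 0.04 (0.691 and 0.831).

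Across the 19 arrays the genes whose log2 signal followed Gabra5 most closely were Cxcl16, a chemokine (Pearson's r = 0.84), Pygb, the brain form of glycogen phosphorylase (0.79), Timeless (0.77), Ctnna1, alpha-catenin (0.77), and Sirt5, a mitochondrial deacylase (0.76). After the group means were removed these correlations were 0.56, 0.47, 0.19, 0.23 and 0.57, so that much of the likeness to Timeless and Ctnna1 lay in the group means. For Gabrb1 they were Mmachc (0.84), Fdxacb1 (0.83), Abhd18 (0.83), Tbc1d19 (0.83) and Fam185a (0.82), with 0.70, 0.78, 0.79, 0.69 and 0.67 within groups. The closest gene was Pkp2 for Gabrr1 (0.88), Tmem200a for Gabrr2 (0.82), Kcnip4 for Glrb (0.89) and Srfbp1 for Gad1 (0.80). These values describe arrays that share BeadChips and a scaling to 1 mean, and carry no test. Among the members the pair most alike was Gabrb1 and Glrb, at 0.71 over all arrays and 0.66 within groups. Gabra5 was at -0.35 to -0.0044 with the other 5, and at 0.13 to 0.66 with them within groups, where the highest was with Gad1.

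Gabrb1 lies next to the gene of another GABA-A subunit, Gabra4, on rat chromosome 14, and Gabra4 was detected on no array. Gabrr1 and Gabrr2 followed each other at r = 0.54 over all arrays and 0.51 within groups.

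Marker lists of retinal cells were measured on the same arrays. Of 17 amacrine cell markers 13 were tested and 0 passed limma's test in any comparison, where 3, 2 and 2 had an unadjusted p under 0.05, as did 20.8%, 27.1% and 8.98% of all tested probes. Between diabetic and control rats they ranged from -0.50 to 0.31. Their mean log2 signal was 8.45 in control, 8.37 in diabetic and 8.39 in insulin-treated retinas. Of 12 bipolar cell markers 8 were tested and 0 passed, with 2, 2 and 0 at an unadjusted p, and their mean was 7.47, 7.32 and 7.42. Over single arrays the bipolar mean ran from 7.39 to 7.56 in control, 7.27 to 7.34 in diabetic and 7.25 to 7.56 in insulin-treated retinas. How many lists or probes kept diabetic and control arrays apart was not counted, so nothing is read from these ranges. Single bipolar markers ranged from -0.46 to 0.18 between diabetic and control rats. Of the 8 tested, 5 lay lower in diabetic rats, as did 64.7% of all tested probes. Of the ganglion cell markers 8 of 8 tested lay lower in diabetic than in control rats, at -0.22 to -0.0070, as did 64.7% of all tested probes. Of these markers 0 passed, with 1 at an unadjusted p. Of 6 horizontal cell markers 4 were tested and 0 passed. The Müller glia list, 6 of 10 genes tested, had means of 11.28 in control, 11.39 in diabetic and 11.12 in insulin-treated retinas. That was the order of Gabra5 and of the lens list, but the arrays of the 3 groups overlapped. Between diabetic and control rats 3 of the 6 Müller glia genes lay lower, and the 6 ranged from -0.32 to 0.62. On BeadChips 1 and 2 the list mean differed by 0.29 and -0.0036 between these groups. Between insulin-treated and untreated diabetic rats 5 of the 6 lay lower. Of these only Vim, which encodes an intermediate filament, passed (-0.93, limma adjusted p = 0.0152). The photoreceptor list, 12 of 14 genes tested, had means of 11.36 in control, 11.37 in diabetic and 11.43 in insulin-treated retinas. Its gene Crx alone passed, higher in insulin-treated than in untreated diabetic rats (0.54, limma adjusted p = 0.0147). In that comparison 6 of the 12 lay lower, and the 12 ranged from -0.23 to 0.54. The pigment epithelium list, 4 of 10 genes tested, was at 7.37 in control, 6.44 in diabetic and 6.60 in insulin-treated retinas. The means of Gabrb1, Gabrr2, Glrb and Gad1 shared this order, but not those of Gabra5 or Gabrr1. So did the means of the amacrine, bipolar, horizontal and ganglion cell lists. Only the lens list was fitted as a covariate, and the part of the other marker lists in the members' differences was not tested.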

How the data were processed

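Retinal mRNA of 19 rats was measured on Illumina RatRef-12 arrays. The authors left out some diabetic and insulin-treated arrays after quality control. Per the labels they used GenomeStudio 1.0.6, in which they removed the background and average-normalized each array. The deposited intensity values, both normalized and non-normalized, are linear, and the detection p-values deposited with them come from the same software. A further deposited table repeated the normalized values for 22517 of 22517 probes. The platform annotation names 13259 probes and leaves 9258 unnamed.

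Intensities under 10 were set to 10 before log2 was taken. A probe was tested if its detection p was under 0.05 throughout 1 or more groups. The model, fitted with limma 3.58.1 (R 4.3.3), held all groups and no covariate, with Benjamini-Hochberg adjustment, and the procedure was tested on simulated data. Named genes were the 7 members, every listed gene with an adjusted p under 0.05, otherwise the 2 of smallest p per list, and the genes of highest correlation, 5 each for the 2 members of smallest limma F-test p and 1 for each other tested member. The members and lists were chosen with earlier results of these data known. Lens list means were compared by exact permutation with scipy 1.17.1. Alternatives covered the floor, filter, normalization, variance model, weights, test, samples, replicate block, BeadChip and lens covariate. The fit without the 2 arrays of lowest weight was added after the data were seen.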

Additional observations from a re-analysis of the deposited data

Results flagged for a closer look

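Each member's log2 signals were searched within each group for an array far from the others by Dixon's criterion, 21 groups in all, of which chance alone flags about 1 in 20. There were 2 such arrays. In diabetic array 3, Gabrr2 had a log2 signal of 9.31 (signal 635), and its gap to the nearest of the other 4 diabetic arrays was 0.75 of the group's range. In diabetic array 5, Glra1 had a log2 signal of 4.42 (signal 21.4) with a gap of 0.753 of the range, the only array on which Glra1 was detected. For Glra1, 3 of the 5 diabetic arrays were set to the floor, and on the signals themselves the gap was 0.504 of the range, so that this array stands apart only with the floor.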

How the results depend on the processing

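Each member has 1 probe, so the mean over a gene's probes changed nothing. Calls here, those of the methods' t-test too, are at an adjusted p under 0.05. The methods themselves took an unadjusted p under 0.05 with a fold over 1.2. At those thresholds 1 of the 6 tested members, Gabra5, passed by limma in each of the 3 comparisons. An unadjusted limma p under 0.05 alone was reached by 20.8% of all tested probes between diabetic and control rats. It was reached by 27.1% between insulin-treated and untreated rats and by 8.98% between insulin-treated and control rats. The share that also passed the fold was not counted, and Gabra5 entered through the diabetic group alone, so nothing is read from this count. The unadjusted t-test p of Gabra5 was 0.00533 between diabetic and control rats, and 0.0810 between insulin-treated and control rats. Between diabetic and control rats the 299 probes called became 107 without a filter, 147 on non-normalized centred signals, 154 by the methods' t-test, 102 with only the 2 groups compared, 112 with the lens covariate, 9 and 0 on BeadChips 1 and 2 alone (1480 at an unadjusted p on BeadChip 2) and 61 without the 2 arrays of lowest weight, and 99 to 393 with an array left out. Between insulin-treated and untreated rats the 1117 became 595 without a filter, 347 by the t-test, 584 with 2 groups, 2 with the lens covariate, 8 and 355 on BeadChips 1 and 2, and 516 without the 2 arrays, and 542 to 1494 with an array left out. Between insulin-treated and control rats the 1 probe became 2 under quantile normalization, 3 under neqc, 101 with array weights and 4 on BeadChip 2, and 1 to 17 with an array left out. It became 0 in 9 settings (517 to 1305 at an unadjusted p): a floor of 50, a detection p under 0.01, no filter, centred signals, an intensity trend, the t-test, the replicate block, BeadChip 1 and the lens covariate. Samples of the same number did not deviate together (17 pairs, r from -0.24 to 0.27, 4 over 0.1), so the numbers were not taken as pairs. With the replicate block 80 and 482 probes were called, Gabra5 was at 0.75 and -1.07 (adjusted p = 0.0399 and 0.00701), and 1 gene of the wider set was called in each comparison, with Gabrd (0.32, adjusted p = 0.138) and Gabbr1 (-0.45, adjusted p = 0.110) lost.

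The 1 member called between diabetic and control rats, Gabra5, became 0 at a floor of 50, a detection p under 0.01, without a filter, on centred signals (adjusted p = 0.0594), with array weights (0.0538), by the t-test (0.102), with 2 groups (0.0765), on either BeadChip (0.384 and 0.212), with the lens covariate and without the 2 arrays (0.168), and was 0 to 2 with an array left out. Between insulin-treated and untreated rats it became 0 at a floor of 50, a detection p under 0.01, on BeadChip 1 (adjusted p = 0.194) and with the lens covariate, and was 1 to 2 with an array left out. The 2 genes of the wider set called between diabetic and control rats became 1 at a floor of 50, a detection p under 0.01, with a trend and with the lens covariate, became 0 without a filter, on centred signals, with array weights, by the t-test, with 2 groups, on either BeadChip and without the 2 arrays, and were 0 to 2 with an array left out. The 2 called between insulin-treated and untreated rats became 1 at a detection p under 0.01, without a filter, on centred signals, with array weights, by the t-test, with 2 groups, with the BeadChip covariate and on BeadChip 2, became 0 at a floor of 50, on BeadChip 1 and with the lens covariate, and were 1 to 4 with an array left out.

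Small differences changed sign. Between diabetic and control rats Gabrr1 was at 0.0041 under both quantile normalization and neqc, 0.0322 on BeadChip 2 and 0.0070 without diabetic array 4 (range with an array left out -0.11 to 0.0070). Between insulin-treated and control rats Gabrb1 was at 0.0294 under quantile normalization, 0.0273 under neqc, 0.0258 on centred signals and 0.0288 on BeadChip 2 (array left out -0.0326 to 0.0053), Gad1 at 0.0256 on centred signals and 0.0099 on BeadChip 1 (array left out -0.0277 to 0.0135), Gabrr1 at -0.0217 on BeadChip 1 and -0.0172 with the lens covariate, Gabrr2 at 0.0108 on BeadChip 1, and Glrb at 0.24 on BeadChip 2 (array left out -0.16 to 0.0296). Between insulin-treated and untreated rats the lens covariate put Gabrr2 at -0.0058 and Glrb at -0.0446. The cause was not tested. The dim signal of Gabra5 and the 5 diabetic arrays limit what could be detected.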

Other observations

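Some genes of the wider set were left out of the test because no group had them detected on every array, and 3 are described here after their values were seen, without a test. Slc6a13, a GABA transporter known from the meninges and the pigment epithelium, differed far more between single rats than the tested genes of the wider set. Its signal was 337, 403, 22.3, 331 and 8.0 in the 5 diabetic retinas, and ran from 10.2 to 406 in controls (median 303). In the 7 insulin-treated retinas it ran from 0.0142 to 13.5, and it was detected on 6 of 7 control, 4 of 5 diabetic and 0 of 7 insulin-treated arrays. On control arrays 1 and 3 and diabetic array 3 it was 24.7, 10.2 and 22.3, with lens list means of 6.75, 7.62 and 8.70. On control array 2 and diabetic array 4 it was 344 and 331, with lens means of 11.50 and 12.79. Diabetic array 5 went the other way, at 8.0 with a lens mean of 11.52. The lens means of insulin-treated arrays lay between 6.19 and 9.74. Neither a part of lens tissue nor an effect of insulin on Slc6a13 was tested. Nlgn2, the adhesion protein of inhibitory synapses, was detected on 4 of 5 diabetic, 1 of 7 control and 1 of 7 insulin-treated arrays, and Gabrg1, a gamma subunit of the GABA-A receptor, on 3 of 5, 0 of 7 and 2 of 7. These counts follow the detection limit of each array and do not measure a fold.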
